A study of Mus musculus with 12 samples.

Results

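Hippocampus and prefrontal cortex of the same 3 control mice were compared gene by gene, in 6 of the 12 RNA-seq libraries of the series. These were the hippocampus and the prefrontal cortex of control mice 1, 2 and 3, all male C57BL/6 animals that were not irradiated and carried no stated transgene or deletion. The remaining 6 libraries came from both regions of 3 male C57BL/6 mice that received abdominal X-ray irradiation (13 Gy in the library names) and were sampled in the chronic phase of gut injury, and they serve below only as further animals for the region difference. Age was not stated in the sources used here, and all libraries carry the same batch label. The deposited values name no unit and were read as FPKM, that is, fragments per kilobase of transcript, scaled to the depth of the library, because they scale with transcript length. Genes were included when their mean over the 6 libraries was at least 1 FPKM, which kept 12923 of 23183 gene symbols.

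The hippocampus is an allocortical structure in which granule cells of the dentate gyrus project to the pyramidal cells of CA3, and these to CA1. The prefrontal cortex is layered neocortex, with neurons of the upper layers that connect cortical areas and neurons of the deep layers that project to the striatum, thalamus and brainstem. Both hold glutamatergic pyramidal neurons, GABAergic interneurons and the same classes of glia. Transcription factors kept on from development maintain the identity of each neuron type, and the sets of channels and receptors that the neurons express determine how they fire and which transmitters they answer to.

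Each difference below is hippocampus minus prefrontal cortex on log2(FPKM + 1), so a positive value means higher in hippocampus, and it is given ± the SE of limma's fit with the mouse as a block (n = 3 mice). Adjusted p values are limma's, two-sided, with Benjamini-Hochberg adjustment over all 12923 genes, and a gene passed at an adjusted p under 0.05. Values of single libraries are in FPKM, in the order of mouse 1, 2 and 3. For each named gene that passed, the difference had the same sign in all 3 mice. Folds are ratios of mean FPKM.

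The 6 libraries held between 15.7 and 18.9 M fragments each, estimated from the steps between low FPKM values, and between 12710 and 12929 genes at 1 FPKM or more. Library profiles correlated at 0.986 to 0.991 across genes within a region and at 0.948 to 0.957 between regions, and the first principal component, with 72.1% of the variance, separated the regions. How the regions were dissected was not stated in the sources used here, and p values measure the spread between 3 mice.

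Of the 12923 genes, 2238 were higher in hippocampus (17.3%) and 2088 lower (16.2%), so that 33.5% passed in either direction. Counts of list members below are to be read beside these shares. With the libraries of mouse 1 left out, 1483 were higher and 1406 lower. The median difference over all genes was 0.005. At least 2-fold differences on this scale were found for 587 genes, 4.54% of those tested, 308 of them higher (2.38%) and 279 lower (2.16%) in hippocampus. For 45.7% of genes all libraries of one region lay above all of the other. Of the genes tested, 510 had a mean under 1 FPKM in one region and were included through the other, so the filter fixed their direction. When both regions were required to reach 1 FPKM, 420 genes differed at least 2-fold. The 3 largest differences in the hippocampal direction among abundant genes with established names were those of the choroid plexus transcripts Ttr (9.38 ± 0.84) and Folr1 (4.82 ± 0.21) and of C1ql2 (4.42 ± 0.08), which encodes a secreted synaptic protein of granule cell axons. Among the largest in the cortical direction were those of Adora2a (-4.33 ± 0.11) and Scn4b (-3.83 ± 0.12), an adenosine receptor and a sodium channel beta subunit, both abundant in striatal neurons.

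**Figure D1:**
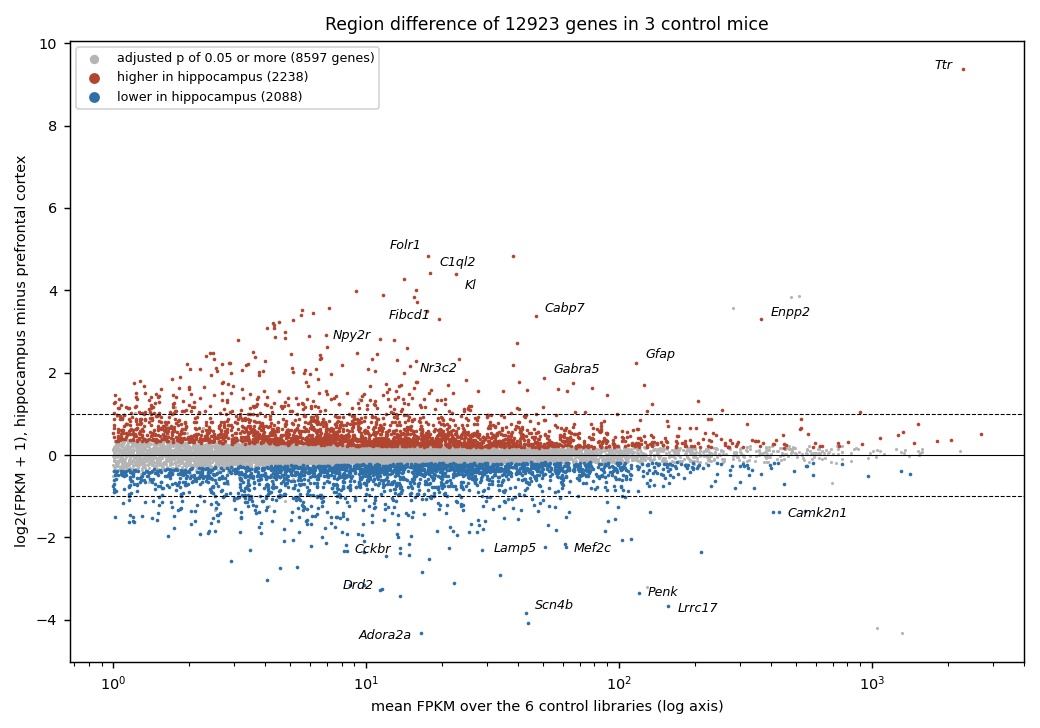
Region difference on log2(FPKM + 1) against mean FPKM (log axis) for the 12923 genes tested, each point a gene, coloured where limma's adjusted p was under 0.05; dashed lines mark a log2 difference of 1. Genes higher (2238) and lower (2088) in hippocampus are about equally many. Ttr lies at 9.38 and the 6 grey points beyond 3 in either direction are small nucleolar RNA genes above 0 in a single library each.

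The regions were then described by marker genes, on lists written with earlier results of these data known. Such lists are no independent check of the region labels. Of 50 tested markers of hippocampal subfields, 35 were higher in hippocampus and 7 lower, with a median difference of 0.69. Of the 50, 8 had a mean under 1 FPKM in one region and were included through the other. C1ql2 (chr1:120340582-120343174, plus strand of mm10) measured 36.2, 31.4 and 38.1 in hippocampus and 0.627, 0.591 and 0.846 in cortex, a 51.3-fold difference (4.42 ± 0.08, adjusted p = 3.73e-08). The regions did not overlap, and the cortical libraries were all under 1 FPKM. Fibcd1, a chitin-binding receptor used as a marker of dorsal CA1, measured 37.4, 32.97 and 38.01 in hippocampus and 2.98, 2.74 and 2.55 in cortex, and Spink8, a protease inhibitor of CA1 cells, measured 33.1, 25.5 and 32.7 in hippocampus and 1.38, 1.45 and 1.27 in cortex. Both were over 10-fold higher in every hippocampal library than in the cortex of the same mouse. Prox1, the homeobox factor that maintains granule cell identity, was 4.73-fold higher (11.04, 9.35 and 11.5 in hippocampus and 1.94, 2.45 and 2.35 in cortex; 1.84 ± 0.10, adjusted p = 3.48e-06). Desmoplakin (Dsp, 2.42 ± 0.12) and lactase (Lct, 2.24 ± 0.10) of granule cells, and Iyd (1.41 ± 0.12), St18 (1.56 ± 0.10) and Tspan18 (2.03 ± 0.11) on the CA2 and CA3 list were also higher. Dsp, Lct and Iyd averaged under 1 FPKM in cortex. Some markers went the other way: Pcp4, a calmodulin regulator of CA2 and layer 5, was lower in hippocampus (-1.38 ± 0.10), as was Coch (-2.33 ± 0.13). On the dentate list 13 of 21 tested genes were higher and 4 lower. Among the lower were Drd2 (-3.25 ± 0.10), which is also on the striatal list, and Calb1 (-0.33 ± 0.07). Pcp4 is abundant enough that the summed FPKM of the CA2 and CA3 list was higher in cortex (728 to 886) than in hippocampus (546 to 582) although 13 of its 17 tested members were higher in hippocampus.

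Neocortical layer markers moved the opposite way for the upper layers and in both directions for the deep layers. On the upper layer list 10 of 16 were lower in hippocampus and 3 higher (median -0.75). Lamp5, a lysosomal membrane protein of superficial neurons, measured 17.2, 18.9 and 16.1 in hippocampus and 89.7, 86.3 and 78.9 in cortex, 4.88-fold lower in hippocampus (-2.23 ± 0.07, adjusted p = 1.90e-07) and without overlap. Cux2, a homeobox factor of upper layer neurons, had a difference of -1.34 ± 0.09, and Rorb, the nuclear receptor of layer 4, one of -0.74 ± 0.10. On the deep layer list 11 of 22 were lower and 7 higher (median -0.04, and between -0.20 and -0.04 in single mice). Foxp2, a forkhead factor of layer 6, measured 0.393, 0.694 and 0.452 in hippocampus and 6.19, 6.52 and 6.62 in cortex, and Syt6, a synaptotagmin of the same layer, was lower by a similar amount (-1.999 ± 0.09). Ctgf, a matrix protein of layer 6b, was also lower (-1.52 ± 0.10). Fezf2 (0.37 ± 0.14, adjusted p = 0.0833) and Bcl11b (0.18 ± 0.08, adjusted p = 0.128), the factors of subcerebral projection neurons, did not pass, and the libraries of the regions overlapped for both. Crym, a thyroid hormone binding protein, and Etv1, an Ets factor of layer 5, were higher in hippocampus (1.08 ± 0.07 and 0.74 ± 0.08). For every gene in these bulk samples, fewer cells of a type and less RNA per cell cannot be told apart.

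Markers of tissue that borders each dissection also differed, and they accompany several results below. All 23 tested choroid plexus genes were higher in hippocampus (median 3.23), with a summed FPKM of 6852, 5562 and 4408 in hippocampus against 79.3, 93.1 and 159.7 in cortex. Ttr, the thyroxine carrier secreted by this epithelium, measured 5625, 4509 and 3596 in hippocampus and 2.39, 0.553 and 58.1 in cortex. Its cortical values differed widely between mice, yet all lay far below the lowest hippocampal value. With robust moderation, which gives genes of unusual spread their own variance, Ttr did not pass (adjusted p = 0.0701). All 12 tested ependymal genes, of the ciliated cells that line the ventricles, were higher in hippocampus as well (median 1.65, summed FPKM 104.7 to 116.4 against 24.0 to 31.6). In the other direction, 23 of 24 genes of striatal and septal neurons were lower in hippocampus (median -2.27), with a summed FPKM of 317, 308 and 298 in hippocampus against 1271, 1408 and 1612 in cortex. Several of these genes are also transcribed in deep layer neurons of neocortex. A mean under 1 FPKM in one region was found for 16 of the 23 choroid plexus, 4 of the 12 ependymal and 7 of the 24 striatal genes. These were included through the other region, so the filter fixed their direction. No gene of these lists was at 0 in all libraries of a region except Slco1a5 in cortex. The hypothalamic list summed to 28.2 and 28.5 in the cortex of mice 1 and 2, to 76.9 in that of mouse 3, and to 13.2 to 17.0 in hippocampus. Without the striatal, choroid plexus and ependymal lists, 2203 genes were higher and 2065 lower. What part these tissues had in the differences of single genes was not tested.

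**Figure D2:**
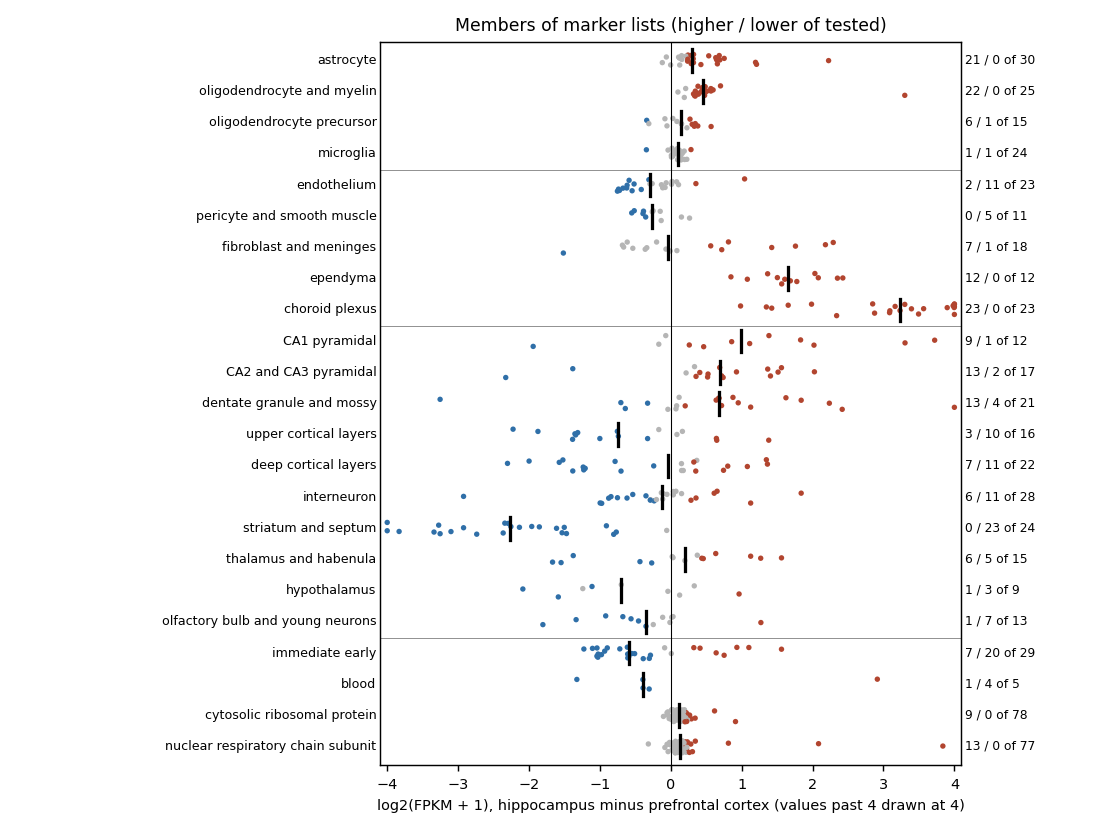
Region differences on log2(FPKM + 1) of the tested members of the cell type, tissue and other lists, each point a gene (red higher, blue lower in hippocampus at an adjusted p under 0.05, grey not past it), black bars the medians, with higher / lower of tested at the right. Choroid plexus, ependyma and myelin genes lie to the right and striatal genes to the left, while microglial and ribosomal protein genes lie close to 0.

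Among transcription factors, 63 of 267 tested members of 8 families were higher and 75 lower in hippocampus, 51.7% against 33.5% of all genes. The homeobox genes showed 12 higher and 22 lower of 55 (median -0.17, and between -0.18 and -0.10 in single mice). A mean under 1 FPKM in one region was found for 8 of the 55, and the filter fixed the direction of these. Lhx9, a LIM homeobox factor, measured 4.72, 5.07 and 4.92 in hippocampus and 0.0136, 0.0888 and 0.0648 in cortex (2.48 ± 0.10, adjusted p = 8.33e-07), with every cortical library close to 0. Lhx2, the selector gene of cortical identity, was only slightly higher (0.45 ± 0.06). The 2 Emx genes, which pattern the dorsal telencephalon, differed in opposite directions: Emx2, which the hippocampus requires in development, was higher (9.08, 7.85 and 8.63 in hippocampus and 5.83, 5.71 and 5.53 in cortex; 0.51 ± 0.08, adjusted p = 0.00141), and Emx1 was lower (10.6, 8.96 and 8.64 in hippocampus and 17.8, 16.2 and 13.5 in cortex; -0.69 ± 0.07, adjusted p = 0.000146). Neither gene's values overlapped between regions. Otx2 (2.87 ± 0.17) and Msx1 (1.99 ± 0.17) were higher, and both accompany the choroid plexus list, of which they are members. Meis2, a cofactor of striatal, olfactory and cortical neurons, was lower (11.8, 14.1 and 11.4 in hippocampus and 44.7, 46.4 and 45.9 in cortex; -1.80 ± 0.07, adjusted p = 7.91e-07), and so were Lhx8 (-1.50 ± 0.15), Six3 (-1.38 ± 0.14) and Pbx3 (-1.34 ± 0.13), which mark neurons of the ventral forebrain and striatum, and Dlx5 (-0.997 ± 0.12) and Dlx6 (-0.97 ± 0.12) of GABAergic neurons. Without members shared with the striatal, choroid plexus and ependymal lists the homeobox counts were 10 and 21 of 52.

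The basic helix-loop-helix factors leaned the other way, with 17 higher and 9 lower of 49 (median 0.10). The neuronal differentiation factors Neurod6 (95.7, 82.8 and 103 in hippocampus and 32.6, 33.04 and 27.7 in cortex; 1.56 ± 0.10, adjusted p = 6.36e-06), Neurod1 (0.88 ± 0.08) and Neurod2 (0.64 ± 0.10) were all higher, as were Bhlhe22 (1.20 ± 0.08) and Mycl (1.18 ± 0.09). No cortical library reached the hippocampal range of Neurod6. Lower in hippocampus were the activity-induced Npas4 (-1.23 ± 0.11), the clock factor Npas2 (-0.86 ± 0.09), the Notch effector Hes5 (-0.76 ± 0.10) and Arnt2 (-0.40 ± 0.07).

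Nuclear receptors included one of the clearest contrasts between relatives. Nr3c2, the mineralocorticoid receptor (chr8:76899442-77245012, plus strand of mm10), measured 35.5, 37.5 and 45.3 in hippocampus and 8.68, 11.8 and 10.7 in cortex, 3.800-fold higher in hippocampus (1.83 ± 0.09, adjusted p = 1.44e-06). Nr3c1, the glucocorticoid receptor that shares its ligand corticosterone, measured 16.98, 19.2 and 19.4 in hippocampus and 19.4, 25.2 and 23.6 in cortex, slightly lower in hippocampus (-0.28 ± 0.07, adjusted p = 0.0156) and with overlapping libraries. This difference did not pass without the block (adjusted p = 0.0682) or without mouse 2 (adjusted p = 0.114). In hippocampus the mineralocorticoid receptor transcript thus stood above the glucocorticoid receptor transcript in every mouse, and in cortex below it in every mouse. Nr2f2 (COUP-TFII, 1.48 ± 0.10) and the activity-induced orphan receptor Nr4a3 (1.56 ± 0.11) were higher in hippocampus. The retinoid receptors Rxrg (-2.36 ± 0.11) and Rarb (-2.13 ± 0.09) were lower, and both are members of the striatal list. In all, 7 of 34 nuclear receptors were higher and 14 lower, or 7 and 12 of 32 without shared members.

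Other families held single factors with large differences. Mef2c, an activity-dependent regulator of synapse number, measured 20.2, 25.3 and 19.5 in hippocampus and 111, 103 and 88.02 in cortex, 4.65-fold lower in hippocampus (-2.17 ± 0.08, adjusted p = 6.17e-07). Tbr1, the T-box factor of layer 6 and early-born glutamatergic neurons, measured 13.1, 14.4 and 12.7 in hippocampus and 43.8, 43.9 and 38.1 in cortex, and Foxp1, a forkhead factor of upper layer and striatal neurons, measured 13.2, 12.9 and 15.2 in hippocampus and 24.9, 25.4 and 23.98 in cortex. Both were lower in hippocampus in each mouse (-1.57 ± 0.07 and -0.81 ± 0.08). The zinc finger repressor Zbtb20, which CA1 pyramidal cells need for their identity, measured 7.54, 6.26 and 10.6 in hippocampus and 2.06, 3.15 and 2.18 in cortex and was higher (1.38 ± 0.17, adjusted p = 0.000325), as were Zbtb18 (0.86 ± 0.08) and Zbtb16 (0.92 ± 0.12). Of 39 Zbtb factors 5 were higher and 6 lower, a share below that of all genes. Nuclear factor I genes Nfib (0.74 ± 0.10), Nfix (0.59 ± 0.06) and Nfia (0.44 ± 0.08), which act in glia and in hippocampal development, were higher. Foxj1, the master regulator of motile cilia, was higher (1.78 ± 0.12) together with the ependymal list that holds it. Sox9 (0.63 ± 0.07) and Sox2 (0.36 ± 0.07), factors of astrocytes and progenitors, and Sox10 (0.32 ± 0.07) of oligodendrocytes were higher by less than 1, beside the glial lists described below.

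**Figure D3:**
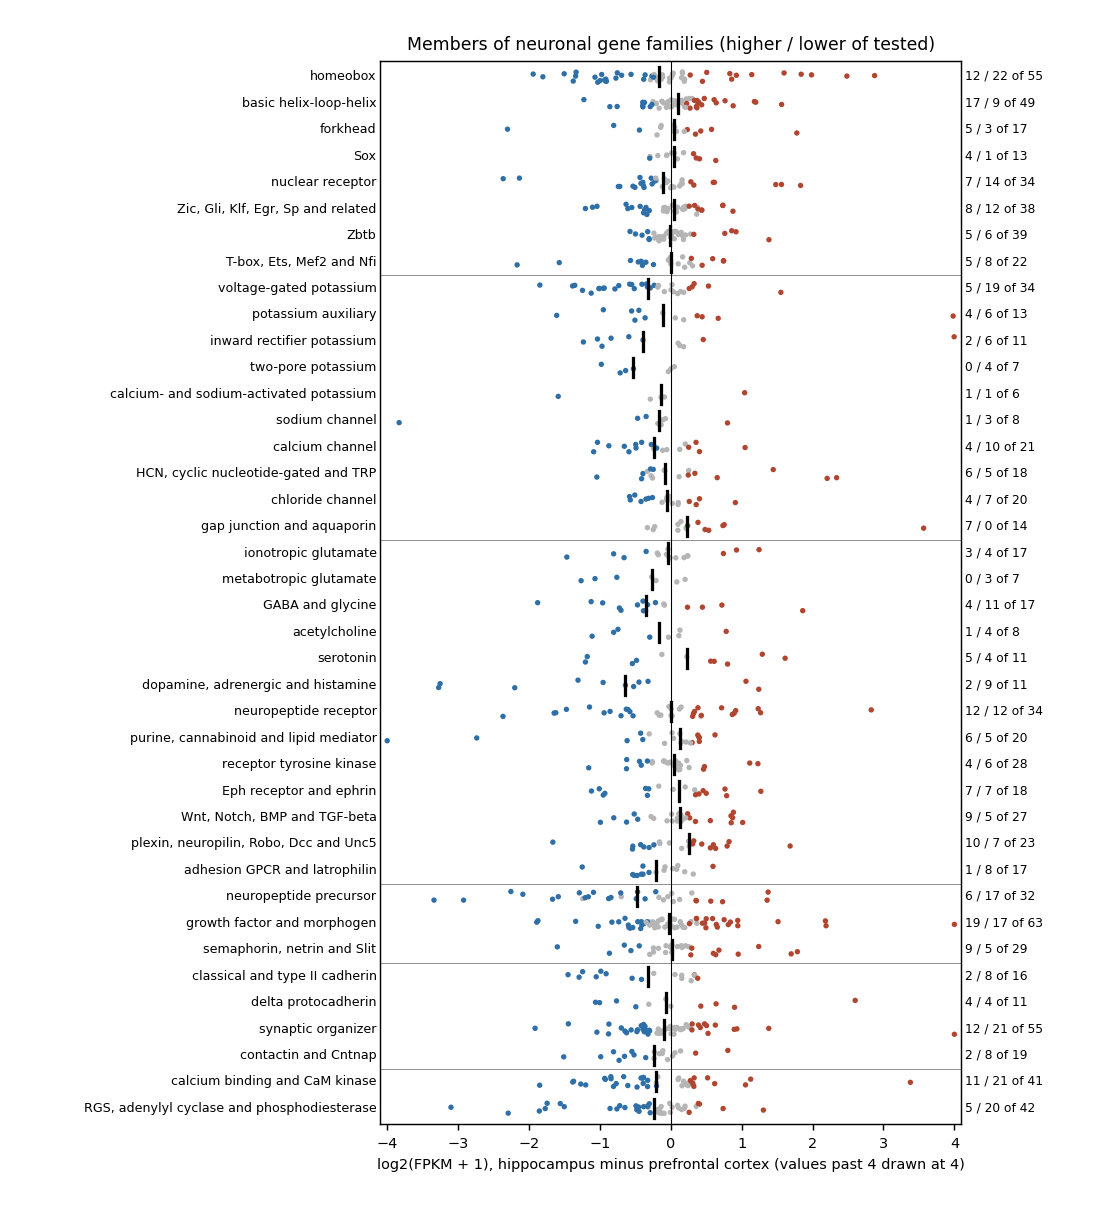
Region differences on log2(FPKM + 1) of the tested members of 40 families of transcription factors, channels, receptors, ligands, adhesion proteins and signalling enzymes, each point a gene (red higher, blue lower in hippocampus at an adjusted p under 0.05, grey not past it), black bars the medians. Voltage-gated and two-pore potassium channels, GABA receptors, monoamine receptors other than those of serotonin, and neuropeptide precursors lie mostly to the left. Aquaporins and gap junction genes lie mostly to the right.

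Ion channels were more often lower than higher in hippocampus: 61 of 152 tested genes were lower and 34 higher (62.5% past the threshold against 33.5% of all genes). Voltage-gated potassium channels, whose subunits set spike shape and firing rate, showed 19 lower and 5 higher of 34 (median -0.32). Kcnf1, a silent subunit that modifies Kv2 channels, measured 12.9, 15.01 and 13.03 in hippocampus and 34.3, 33.6 and 33.1 in cortex, 2.47-fold lower (-1.25 ± 0.07, adjusted p = 3.83e-06). Its relative Kcng2, also a silent subunit, measured 10.98, 10.9 and 10.5 in hippocampus and 2.65, 3.25 and 3.22 in cortex, 3.56-fold higher (1.55 ± 0.09, adjusted p = 3.59e-06). The regions did not overlap for either gene. Kcnh4 (-1.85 ± 0.10), Kcnh5 (-1.39 ± 0.15) and Kcna5 (-1.35 ± 0.10) were lower, all with hippocampal means under 2 FPKM. Two-pore leak channels showed 4 lower and none higher of 7, with Kcnk3 (-0.98 ± 0.08) and Kcnk2 (-0.71 ± 0.07) furthest from 0. Among inward rectifiers, 6 of 11 were lower, among them the neuronal Kir2 subunits Kcnj4 (31.8, 31.9 and 29.8 in hippocampus and 80.00, 72.8 and 71.1 in cortex; -1.23 ± 0.06, adjusted p = 1.96e-06), Kcnj2 (-1.03 ± 0.10) and Kcnj12 (-0.97 ± 0.09) and the G protein-gated Kcnj9 (-0.84 ± 0.08). Kcnj13 (3.997 ± 0.12) and the beta subunit Kcne2 (3.98 ± 0.18), both of choroid plexus, were higher with that list. Kcnn2, the calcium-activated SK2 channel, was higher (1.04 ± 0.08) and Kcnt1, the sodium-activated Slack channel, lower (-1.59 ± 0.08). Of the auxiliary subunits, the dipeptidyl peptidase-like proteins that travel with Kv4 channels parted: Dpp10 was 3.19-fold lower (12.6, 16.2 and 13.5 in hippocampus and 41.4, 47.1 and 46.1 in cortex; -1.61 ± 0.07, adjusted p = 9.14e-07) and Dpp6 higher (0.44 ± 0.09).

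For calcium channels 10 of 21 genes were lower and 4 higher (66.7% past the threshold against 33.5% of all genes). The stargazin-like subunits, which also carry AMPA receptors to synapses, went both ways. Cacng8 measured 85.9, 82.7 and 104 in hippocampus and 49.5, 38.5 and 42.2 in cortex and was higher (1.05 ± 0.09, adjusted p = 4.04e-05), and Cacng3 measured 29.4, 33.3 and 32.6 in hippocampus and 73.7, 67.8 and 64.6 in cortex and was lower (-1.09 ± 0.08, adjusted p = 1.33e-05). Cacng4 (-1.03 ± 0.07) and the beta subunit Cacnb4 (-0.87 ± 0.08) were lower. Among sodium channel genes, the beta subunits Scn3b (0.80 ± 0.07) and Scn4b (4.82, 5.59 and 3.91 in hippocampus and 71.8, 77.6 and 94.1 in cortex; -3.83 ± 0.12, adjusted p = 2.68e-07) differed in opposite directions, and Scn4b is on the striatal list. The pore subunit Scn1a of fast-spiking neurons was lower by less (-0.47 ± 0.08). In the group of HCN, cyclic nucleotide-gated and TRP channels, Trpc4, a receptor-operated cation channel, was 3.100-fold higher (11.7, 15.4 and 16.7 in hippocampus and 3.79, 5.27 and 5.08 in cortex; 1.45 ± 0.08, adjusted p = 2.68e-06). The chloride transporters that set the direction of GABA currents also parted. Slc12a2 (NKCC1), which loads chloride, was higher (0.91 ± 0.11), and Slc12a5 (KCC2), which extrudes it, was lower (78.9, 86.5 and 90.3 in hippocampus and 129, 130.3 and 124 in cortex; -0.58 ± 0.07, adjusted p = 0.000212). Slc12a2 is abundant in choroid plexus, whose list was higher in the same libraries. Gap junction and aquaporin genes showed 7 higher and none lower of 14, among them Aqp1 of choroid plexus (3.57 ± 0.17) and the astrocytic Aqp4 (0.75 ± 0.07) and Gja1 (0.54 ± 0.06).

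Receptors were split, with 64 of 238 tested genes higher and 85 lower (62.6% past the threshold). Ionotropic glutamate receptors, which carry fast excitation, included 3 higher and 4 lower of 17 (41.2% past the threshold, near the 33.5% of all genes). Gria1, the AMPA subunit that is trafficked during potentiation (chr11:57011387-57330244, plus strand of mm10), measured 186, 179 and 208 in hippocampus and 83.95, 79.9 and 76.2 in cortex, 2.39-fold higher (1.25 ± 0.07, adjusted p = 4.53e-06). Gria4 was lower (-0.66 ± 0.07). Among kainate subunits Grik4, of CA3, measured 18.02, 15.7 and 17.9 in hippocampus and 9.91, 8.597 and 7.35 in cortex and was higher (0.93 ± 0.09, adjusted p = 9.46e-05), and Grik3 measured 6.13, 7.38 and 6.45 in hippocampus and 19.7, 20.8 and 19.9 in cortex and was lower (-1.47 ± 0.07, adjusted p = 1.91e-06). Thus both the AMPA and the kainate family held a subunit on each side. The obligatory NMDA subunit Grin1 (-0.19 ± 0.08, adjusted p = 0.0997) and Grin2b (0.23 ± 0.20, adjusted p = 0.402) did not pass, and Grin2a was higher (26.1, 26.7 and 42.2 in hippocampus and 15.2, 22.6 and 17.1 in cortex; 0.74 ± 0.16, adjusted p = 0.00623). Mouse 3 had the highest hippocampal value of Grin2a, whose difference did not pass without mouse 1 (adjusted p = 0.0583) or with robust moderation (adjusted p = 0.0655). Metabotropic receptors Grm4 (-1.26 ± 0.09), Grm8 (-1.07 ± 0.09) and Grm3 (-0.76 ± 0.08) were lower, and no member of that list was higher.

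GABA and glycine receptor genes showed 11 lower and 4 higher of 17 (median -0.36). Gabra5, the alpha subunit of extrasynaptic receptors in pyramidal dendrites (chr7:57407672-57510059, minus strand of mm10), measured 78.4, 74.04 and 86.5 in hippocampus and 17.4, 23.98 and 22.7 in cortex, 3.73-fold higher (1.86 ± 0.09, adjusted p = 1.99e-06). Gabrd, the delta subunit of tonic receptors, measured 11.4, 11.2 and 8.58 in hippocampus and 44.7, 39.3 and 38.05 in cortex, 3.92-fold lower (-1.88 ± 0.08, adjusted p = 7.91e-07). The regions were fully separated for both. Gabra2 was higher (70.8, 66.4 and 71.4 in hippocampus and 49.8, 38.7 and 37.8 in cortex; 0.72 ± 0.08, adjusted p = 0.000194) and Gabra3 lower (-1.12 ± 0.07). In hippocampus Gabra5 stood above Gabra2 in every mouse, and in cortex below it in every mouse. Gabra5, Emx2, Six3, Igf2, Grin1 and others overlap antisense or other genes in the annotation, and whether fragments were counted by strand was not stated in the sources used here, so the values of such genes are uncertain. The glycine receptor subunits Glra2 (-0.72 ± 0.09) and Glra3 (-0.96 ± 0.17) were lower.

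**Figure D4:**
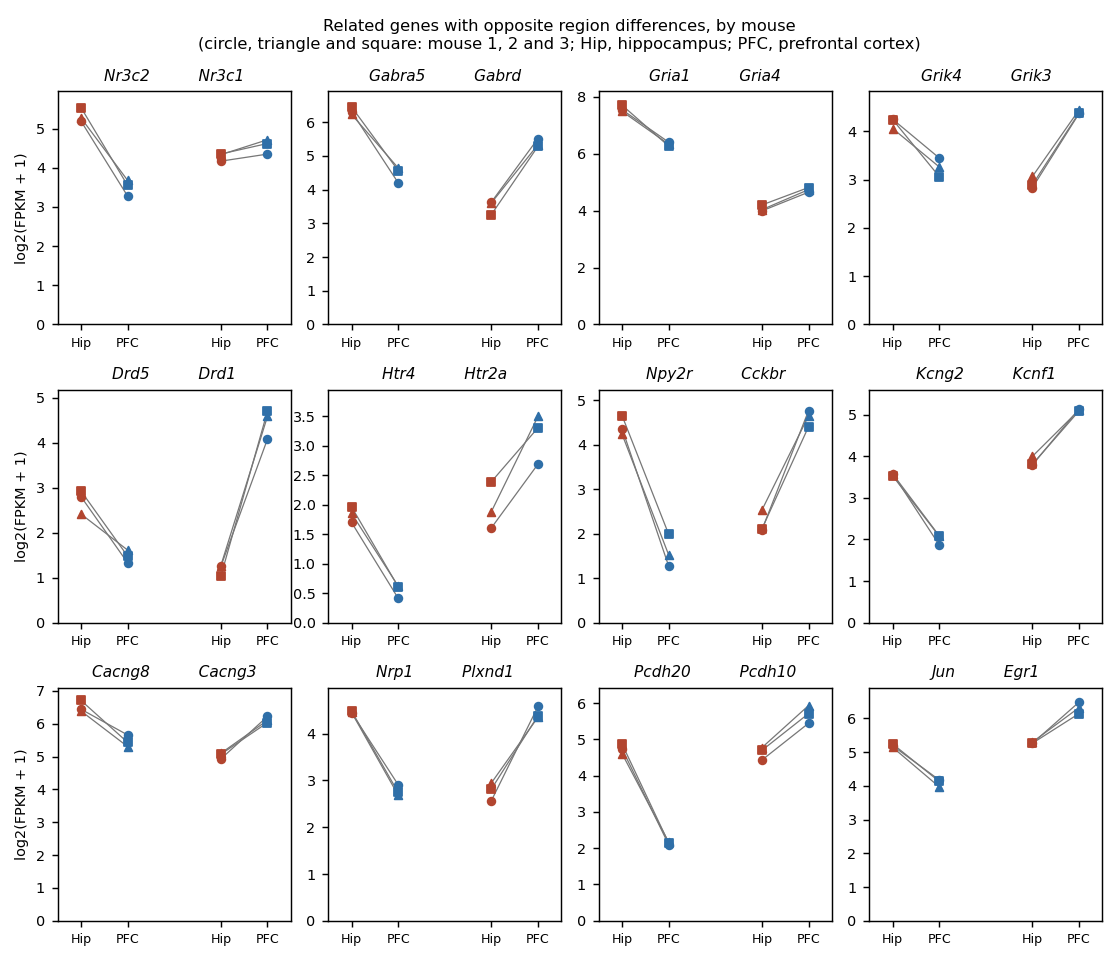
Log2(FPKM + 1) in hippocampus (red) and prefrontal cortex (blue) for 12 pairs of related genes, lines joining the libraries of a mouse. Within each pair the left gene falls and the right gene rises from hippocampus to cortex in all 3 mice, from Nr3c2 (1.83) and Nr3c1 (-0.28) to Jun (1.10) and Egr1 (-1.04).

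Receptors of monoamines other than serotonin were mostly lower in hippocampus: 9 of 11 dopamine, adrenergic and histamine receptors were lower and 2 higher (median -0.64). Drd1 measured 1.38, 1.41 and 1.05 in hippocampus and 15.96, 23.1 and 25.1 in cortex and Drd2 measured 1.36, 1.49 and 1.29 in hippocampus and 19.04, 22.00 and 24.4 in cortex, so that every cortical library was above every hippocampal one. Both are on the striatal list, and without them 7 of 9 were lower. Drd5, the other D1-class receptor, measured 5.98, 4.34 and 6.61 in hippocampus and 1.51, 2.06 and 1.79 in cortex and was higher in hippocampus (1.24 ± 0.14, adjusted p = 0.00018). The alpha1 adrenergic receptors split in the same manner. Adra1d measured 28.6, 26.4 and 32.1 in hippocampus and 15.2, 14.4 and 10.8 in cortex and was higher (1.06 ± 0.12, adjusted p = 0.000204), and Adra1b measured 1.11, 1.698 and 1.796 in hippocampus and 11.6, 11.1 and 9.19 in cortex and was 6.92-fold lower (-2.20 ± 0.13, adjusted p = 4.37e-06). Hrh3, the histamine autoreceptor, was lower (-1.31 ± 0.07). Of 11 serotonin receptors 5 were higher and 4 lower. For 3 of the 11 the mean was under 1 FPKM in one region, so the filter fixed their direction. The Gs-coupled Htr4 (2.25, 2.61 and 2.900 in hippocampus and 0.332, 0.537 and 0.525 in cortex; 1.29 ± 0.11, adjusted p = 3.52e-05) and the Gi-coupled Htr5b (2.62, 2.17 and 3.76 in hippocampus and 0.296, 0.186 and 0.245 in cortex; 1.61 ± 0.13, adjusted p = 3.32e-05) were under 1 FPKM in every cortical library. Htr1a, the somatodendritic autoreceptor that is also postsynaptic in the limbic system, was higher (0.56 ± 0.10), as were Htr2c (0.80 ± 0.11), abundant in choroid plexus, and the ion channel Htr3a (0.61 ± 0.09) of interneurons. Htr2a, the Gq-coupled receptor of deep layer pyramidal cells, measured 2.05, 2.69 and 4.25 in hippocampus and 5.45, 10.3 and 8.89 in cortex and was lower (-1.20 ± 0.13, adjusted p = 0.000155), and Htr1b was lower too (-1.18 ± 0.11). Among acetylcholine receptors Chrna7, the homomeric nicotinic receptor, was higher (0.78 ± 0.10). Chrm4 (-1.11 ± 0.08), Chrna4 (-0.81 ± 0.11) and Chrm2 (-0.74 ± 0.15) were lower.

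Neuropeptide receptors were evenly divided, 12 higher and 12 lower of 34. However, 10 of the 34 had a mean under 1 FPKM in one region and were included through the other, so the filter fixed their direction. Npy2r, the presynaptic receptor of neuropeptide Y, measured 19.6, 17.9 and 24.2 in hippocampus and 1.41, 1.87 and 2.96 in cortex, 9.88-fold higher (2.83 ± 0.10, adjusted p = 4.21e-07). Cckbr, the brain receptor of cholecystokinin, measured 3.25, 4.79 and 3.32 in hippocampus and 26.3, 24.2 and 20.3 in cortex, 6.22-fold lower (-2.37 ± 0.11, adjusted p = 1.12e-06). Both showed no overlap between regions. The somatostatin receptors parted, with Sstr4 higher (0.92 ± 0.13) and Sstr2 lower (-1.47 ± 0.12). The kappa opioid receptor Oprk1 (-1.65 ± 0.11), the calcitonin receptor modifier Ramp3 (-1.55 ± 0.12) and Trhr2, a receptor of thyrotropin-releasing hormone (-1.62 ± 0.14), were lower. Crhr2 (1.27 ± 0.16) and the natriuretic peptide clearance receptor Npr3 (1.23 ± 0.10) were higher. Among purine receptors, the Gi-coupled adenosine receptor Adora1 (0.40 ± 0.07), abundant in hippocampal pyramidal cells, was higher and the Gs-coupled Adora2a (0.802, 0.562 and 0.5797 in hippocampus and 29.7, 29.5 and 37.6 in cortex; -4.33 ± 0.11, adjusted p = 1.51e-07) was 49.8-fold lower, the latter a defining transcript of striatal neurons and on that list. Gpr6, also of striatal neurons, was lower (-2.74 ± 0.14).

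Neuropeptide precursors were lower in hippocampus for 17 of 32 and higher for 6 (median -0.48). The filter fixed the direction of 5 of the 32, whose mean was under 1 FPKM in one region. The median was -0.32, -0.10 and -0.90 in mouse 1, 2 and 3, and was furthest from 0 in mouse 3, whose cortex had the highest sum of the hypothalamic list; the part of that tissue was not tested. The enkephalin precursor Penk measured 20.3, 22.5 and 19.2 in hippocampus and 199, 214 and 244 in cortex, Tac1 (substance P) 6.66, 7.74 and 6.896 in hippocampus and 52.6, 60.2 and 69.3 in cortex and Pdyn (dynorphin) 4.06, 4.26 and 3.91 in hippocampus and 22.5, 21.8 and 25.6 in cortex. All 3 were separated between regions and are on the striatal list, and without those genes 14 of 29 precursors were lower. Npy measured 82.7, 79.4 and 67.9 in hippocampus and 149, 139.7 and 135 in cortex and was lower in hippocampus (-0.88 ± 0.06, adjusted p = 1.35e-05), opposite to its receptor Npy2r. Cartpt (-2.09 ± 0.09) and Tac2 (-1.67 ± 0.16) were lower as well. Trh measured 0.173, 0.171 and 0.0921 in hippocampus and 1.005, 2.24 and 5.26 in cortex (-1.59 ± 0.27, adjusted p = 0.00195), and its highest value was in the cortex of mouse 3, the library with the highest sum of the hypothalamic list. Sst, the somatostatin precursor of interneurons, measured 453, 442 and 446 in hippocampus and 436, 419.5 and 454 in cortex and did not pass (0.04 ± 0.06, adjusted p = 0.707). Grp (gastrin-releasing peptide, 1.37 ± 0.08) and Crhbp (0.73 ± 0.10), which binds corticotropin-releasing hormone, were higher. Nmb was higher too (35.6, 19.6 and 4.78 in hippocampus and 9.56, 6.46 and 2.27 in cortex; 1.36 ± 0.15, adjusted p = 0.000206), but its hippocampal and cortical values overlapped between mice, since mouse 3 was low in both regions, and it did not pass without the block (adjusted p = 0.135).

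Growth factors and morphogens showed 19 higher and 17 lower of 63 (57.1% past the threshold against 33.5% of all genes). The filter fixed the direction of 9 of the 63, whose mean was under 1 FPKM in one region. Both neurotrophins named here were higher: Bdnf (10.2, 9.25 and 9.71 in hippocampus and 5.59, 5.43 and 5.08 in cortex; 0.75 ± 0.08, adjusted p = 0.000126) and Ntf3 (4.43, 4.93 and 5.14 in hippocampus and 1.01, 1.09 and 1.02 in cortex; 1.51 ± 0.10, adjusted p = 7.43e-06), on the CA2 and CA3 list. Tgfb2 (2.19 ± 0.10), Igf2 (2.18 ± 0.06) and Sostdc1 (4.26 ± 0.20), of which Igf2 is on the list for meninges and Sostdc1 on that for choroid plexus, were higher. Bmp3 (-1.89 ± 0.12), Rspo1 (-1.87 ± 0.15), Wnt10a (-1.34 ± 0.11) and Wnt9a (-1.02 ± 0.10) were lower. On the receptor side, Fgfr1 (26.3, 24.8 and 27.1 in hippocampus and 10.5, 11.5 and 12.6 in cortex; 1.11 ± 0.07, adjusted p = 7.60e-06) and Kit (1.23 ± 0.09) were higher and Tyro3, a receptor of the TAM family, lower (28.9, 30.8 and 29.5 in hippocampus and 73.4, 65.9 and 63.4 in cortex; -1.16 ± 0.07, adjusted p = 5.30e-06). The Hedgehog transducer Smo (0.85 ± 0.10) and the Wnt receptors Fzd4 (1.01 ± 0.10) and Fzd7 (0.88 ± 0.09) were higher, and Fzd3 (-0.62 ± 0.09) and the activin receptor-like kinase Acvr1c (-0.80 ± 0.10) lower.

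Guidance molecules of adult neurons differed by receptor and by cue. The neuropilins, coreceptors of class 3 semaphorins, were higher: Nrp1 measured 20.8, 20.97 and 21.4 in hippocampus and 6.51, 5.43 and 5.703 in cortex, 3.58-fold higher (1.68 ± 0.08, adjusted p = 1.34e-06), and Nrp2 had a difference of 0.82 ± 0.08. Plxnd1, the plexin that binds Sema3e, measured 4.93, 6.72 and 6.05 in hippocampus and 22.98, 19.5 and 19.9 in cortex, 3.52-fold lower (-1.66 ± 0.11, adjusted p = 9.56e-06). Its ligand Sema3e was higher (1.24 ± 0.10), whereas Sema3a, a ligand that acts through Nrp1, was lower (-1.60 ± 0.10). For both pairs, ligand and receptor thus differed in opposite directions. The cue Slit1 measured 30.7, 30.97 and 37.1 in hippocampus and 10.4, 8.96 and 8.91 in cortex and was higher (1.70 ± 0.09, adjusted p = 2.85e-06), and its receptor Robo2 was lower (-0.54 ± 0.09). Eph receptors and ephrins were 7 higher and 7 lower of 18. Epha6 (1.27 ± 0.17), Epha4 (0.79 ± 0.08) and Epha7 (0.76 ± 0.07) were higher, and Efna5 (-1.12 ± 0.12), Ephb6 (-1.01 ± 0.10) and Efnb2 (-0.93 ± 0.08) lower.

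Adhesion proteins were lower for 41 of 101 tested genes and higher for 20 (60.4% past the threshold against 33.5% of all genes). Classical and type II cadherins, which mark cortical areas, showed 8 lower of 16, among them Cdh7 (-1.45 ± 0.10), Cdh18 (-1.29 ± 0.11) and Cdh22 (-1.24 ± 0.08), against 2 higher. Delta protocadherins were balanced, 4 higher and 4 lower of 11. Pcdh20 measured 25.6, 23.3 and 28.2 in hippocampus and 3.28, 3.48 and 3.41 in cortex, 7.58-fold higher (2.60 ± 0.08, adjusted p = 2.45e-07), and Pcdh10 measured 20.6, 26.3 and 24.9 in hippocampus and 42.5, 60.04 and 51.4 in cortex, 2.14-fold lower (-1.06 ± 0.07, adjusted p = 5.30e-06). No library of one region reached the range of the other for either gene. Among synaptic organizers the C1q-related proteins C1ql2 and Cbln2 stood at opposite ends, with Cbln2 at 3.102, 3.44 and 3.44 in hippocampus and 17.3, 14.1 and 14.6 in cortex (-1.91 ± 0.10, adjusted p = 1.96e-06). The leucine-rich proteins Lrrtm1 (0.93 ± 0.07), higher, and Lrrtm3 (-1.45 ± 0.08), lower, each lie inside a catenin gene in the annotation. Cntn4 (-1.51 ± 0.08) led the 8 lower of 19 contactin-related genes.

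Calcium-binding proteins and calmodulin kinases were lower for 21 and higher for 11 of 41 (78% past the threshold against 33.5% of all genes). Hippocalcin (Hpca), a calcium sensor named for the region, measured 1294, 1095 and 1259 in hippocampus and 598, 549 and 606 in cortex, 2.08-fold higher (1.05 ± 0.06, adjusted p = 5.24e-06). Cabp7, a calmodulin-like regulator, measured 93.4, 73.6 and 92.2 in hippocampus and 6.27, 7.500 and 8.44 in cortex, 11.7-fold higher (3.38 ± 0.10, adjusted p = 1.97e-07). Camk2n1, an endogenous inhibitor of CaM kinase II, measured 244, 264 and 209.9 in hippocampus and 641, 620.4 and 592 in cortex, 2.58-fold lower (-1.37 ± 0.07, adjusted p = 1.99e-06). Cabp1 (-1.27 ± 0.08) and Necab3 (-1.85 ± 0.09) were also lower. The buffers used to class neurons did not move together: Calb2 was higher (1.13 ± 0.10), Calb1 lower (-0.33 ± 0.07), and Pvalb did not pass (-0.20 ± 0.07, adjusted p = 0.0571). Of the RGS proteins, adenylyl cyclases and phosphodiesterases 20 were lower and 5 higher of 42. Rgs9 (-3.10 ± 0.08), Pde10a (-2.29 ± 0.09) and Pde1b (-1.85 ± 0.07), all on the striatal list, were lower, and Rgs14 of CA2 neurons (0.74 ± 0.07) and Pde11a (1.31 ± 0.13) were higher. Without the genes of that list 16 of 38 were lower.

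Most astrocyte and myelin genes were higher in hippocampus, and few microglial genes passed the test in either direction. Of 30 astrocyte genes 21 were higher, none lower and 9 did not pass (median 0.30, 70% past the threshold against 33.5% of all genes). Gfap, the intermediate filament of astrocytes (chr11:102887336-102900912, minus strand of mm10), measured 214, 175 and 190.5 in hippocampus and 41.6, 41.03 and 38.6 in cortex, 4.78-fold higher (2.23 ± 0.07, adjusted p = 2.26e-07). Aqp4, the water channel of their endfeet, measured 30.1, 34.3 and 36.6 in hippocampus and 16.3, 22.3 and 20.4 in cortex and was 1.71-fold higher (0.75 ± 0.07, adjusted p = 7.78e-05). The urea transporter Slc14a1 was higher by more (1.20 ± 0.10). Kcnj10, the potassium channel shared by all astrocytes, measured 39.98, 40.2 and 34.96 in hippocampus and 33.3, 37.5 and 34.4 in cortex and did not pass (0.13 ± 0.07, adjusted p = 0.198). The astrocyte genes thus differed by very unequal amounts, and Gfap lay well above the median of its list. Of 25 myelin genes 22 were higher and none lower (median 0.45, and 0.60, 0.47 and 0.29 in mouse 1, 2 and 3), or 21 of 24 without Enpp2, which choroid plexus also makes. Mbp (myelin basic protein) measured 1623, 1737 and 1380.0 in hippocampus and 976, 1105 and 1115 in cortex (0.56 ± 0.09, adjusted p = 0.00138), and transferrin (Trf) differed by 0.70 ± 0.07. Precursor genes were higher for 6 and lower for 1 of 15, the latter Lhfpl3 (-0.34 ± 0.08), which did not pass without mouse 3 (adjusted p = 0.0504). Of 24 microglial genes 1 was higher and 1 lower, Olfml3 (0.28 ± 0.08) and Cd68 (-0.34 ± 0.11), a smaller share than the 33.5% of all genes. The fitted difference was positive for 22 of the 24, with a median of 0.10 (0.15, 0.13 and -0.01 in mouse 1, 2 and 3). Neither Olfml3 nor Cd68 passed without mouse 1 (adjusted p = 0.145 and 0.0839). Cx3cr1, the fractalkine receptor of microglia, measured 14.9, 14.6 and 15.6 in hippocampus and 16.2, 13.4 and 14.6 in cortex and did not pass (0.03 ± 0.08, adjusted p = 0.797).

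Vascular genes were lower in hippocampus for 11 of 23 endothelial genes and 5 of 11 mural cell genes, with 2 endothelial genes and no mural cell gene higher. In all, 56.5% of the endothelial and 45.5% of the mural cell genes passed, against 33.5% of all genes. Cldn5, the tight junction protein of brain vessels, measured 7.31, 7.93 and 10.8 in hippocampus and 15.9, 14.03 and 14.9 in cortex (-0.74 ± 0.11, adjusted p = 0.000809), Pecam1 1.69, 2.82 and 2.56 in hippocampus and 4.62, 5.12 and 3.79 in cortex (-0.72 ± 0.13, adjusted p = 0.0023) and Ly6c1 8.99, 15.1 and 11.4 in hippocampus and 17.5, 20.8 and 22.7 in cortex (-0.75 ± 0.10, adjusted p = 0.000506). For each of these markers the lowest cortical library was above the highest hippocampal one. The efflux pump Abcb1a (-0.68 ± 0.10) was lower and the tight junction protein Ocln (1.04 ± 0.10) and basigin (Bsg, 0.35 ± 0.07) higher, the last so abundant that the summed FPKM of the list was higher in hippocampus (507 to 551) than in cortex (467 to 496). Bsg did not pass without mouse 2 (adjusted p = 0.0724). Genes of fibroblasts and meninges were 7 higher and 1 lower of 18, with decorin (Dcn, 2.29 ± 0.10) and Igfbp2 (1.76 ± 0.07) higher and Col6a1 (-1.51 ± 0.13) lower. The fitted difference was negative for 10 of the 18, with a median of -0.04 (-0.34, -0.13 and 0.39 in mouse 1, 2 and 3). The summed FPKM of this list overlapped between regions, at 617 to 1186 in hippocampus and 910 to 1067 in cortex. The beta globin gene Hbb-b1 was lower in hippocampus (-0.39 ± 0.08). The alpha globin copies Hba-a1 (-1.32 ± 0.28) and Hba-a2 (2.91 ± 0.72) had opposite signs, but they are near-identical and the division of fragments between them is uncertain. Neither passed without the block (adjusted p = 0.0589 and 0.0512).

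Immediate early genes, which are transcribed within minutes of neuronal activity or handling, were lower in hippocampus for 20 of 29 and higher for 7 (median -0.59). The share past the threshold was 93.1%, against 33.5% of all genes. Egr1 measured 37.4, 38.4 and 37.5 in hippocampus and 88.6, 79.04 and 69.8 in cortex, 2.100-fold lower (-1.04 ± 0.08, adjusted p = 1.50e-05), Egr2 0.862, 0.923 and 0.677 in hippocampus and 3.54, 2.89 and 2.39 in cortex (-1.10 ± 0.11, adjusted p = 9.81e-05), and Npas4 1.79, 1.56 and 1.49 in hippocampus and 6.68, 4.48 and 4.43 in cortex (-1.23 ± 0.11, adjusted p = 4.42e-05). The secreted pentraxin Nptx2 was lower (-1.04 ± 0.11), and all cortical values of these genes lay above all hippocampal ones. Jun measured 35.5, 34.3 and 36.9 in hippocampus and 17.1, 14.7 and 16.5 in cortex, 2.21-fold higher (1.10 ± 0.07, adjusted p = 5.05e-06), and Dusp5, a nuclear phosphatase that switches off ERK, measured 7.95, 8.44 and 8.402 in hippocampus and 3.68, 4.32 and 3.59 in cortex, 2.14-fold higher (0.93 ± 0.09, adjusted p = 5.71e-05). With Nr4a3 and Bdnf given above, these were the largest differences in the hippocampal direction. The summed FPKM of the list was 488, 479 and 488 in hippocampus and 686, 654 and 590 in cortex. Whether time to dissection differed between regions was not stated in the sources used here, and its part was not tested.

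Promoters are shown for Egr2, Dusp5 and Jun because the genes differed in opposite directions and each promoter held one of the motifs searched. Of the 30 list genes, 23 were found among 32851 RefSeq promoter windows (GRCm38.p6, 250 bases before to 50 after a start site). The motif CCNNATNNGG, a form of the serum response element core, was searched on both strands and was in 4.51% of all windows, and in a window of 4 of the 23 genes. TGACNTCA, a form of the cAMP and AP-1 responsive element, also searched on both strands, was in 8.83% of all windows and in a window of 5 of the 23. The percentages count windows, whereas a gene was counted when any of its windows matched. Counts and percentages therefore cannot be compared. Bases 150 to 37 before the start site are printed on the gene's strand, with matches in capitals; no match overlaps another.
Egr2, chr10:67537719-67537832, plus strand, lower in hippocampus: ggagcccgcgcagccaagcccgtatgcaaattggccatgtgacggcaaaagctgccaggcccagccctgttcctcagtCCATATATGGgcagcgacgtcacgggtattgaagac
Dusp5, chr19:53528995-53529108, plus strand, higher in hippocampus: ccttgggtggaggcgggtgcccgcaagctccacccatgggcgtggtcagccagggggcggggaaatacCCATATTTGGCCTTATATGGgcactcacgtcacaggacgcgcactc
Jun, chr4:95052259-95052372, minus strand, higher in hippocampus: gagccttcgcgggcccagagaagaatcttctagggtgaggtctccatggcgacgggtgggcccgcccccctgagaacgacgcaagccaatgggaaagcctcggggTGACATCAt
Egr2 held 1 match to CCNNATNNGG, 72 bases before this start site, one of several annotated for the gene. Dusp5 held 2 adjacent matches, 82 and 72 bases before its start site. Jun held 1 match to TGACNTCA, 45 bases before its start site. The same motif thus stood before a gene that was lower and one that was higher in hippocampus, and the matches describe the letters of the reference sequence only.

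Most transcripts used by every cell differed by small amounts. Of 78 cytosolic ribosomal protein genes 9 were higher and none lower (median 0.11), and of 77 respiratory chain genes 13 were higher and none lower (median 0.12). The shares past the threshold, 11.5% and 16.9%, were below the 33.5% of all genes. The fitted difference was positive for 71 of the 78 and for 71 of the 77. In mouse 3 alone the medians of these lists were -0.06 and 0.03. The exceptions in size were isoforms with restricted use, Cox8b (34.4, 29.1 and 25.1 in hippocampus and 1.47, 0 and 2.87 in cortex; 3.84 ± 0.31, adjusted p = 2.79e-05) and Cox6b2 (2.08 ± 0.29). Cox8b was listed at 0 in the cortex of mouse 2, and its groups did not overlap. In hippocampus both genes were highest in mouse 1 and lowest in mouse 3, as was the summed choroid plexus list. The part of that tissue was not tested. Neither gene passed with robust moderation (adjusted p = 0.0502 and 0.112).

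The region difference was then read in 3 other animals, the irradiated mice, fitted on their own 6 libraries. Of 12878 genes tested there, 4629 passed (35.9%). Of the 4326 genes that passed in control mice, 4243 were tested in the irradiated mice and 98.7% of these had the same direction, 78.6% also passing there, while 3 passed in the opposite direction. Of the genes with at least 2-fold differences, 561 were tested and 96.6% passed in the same direction. Nr3c2 differed by 1.83 in irradiated mice against 1.83 in controls, Gabra5 by 1.65 against 1.86, Gfap by 2.15 against 2.23 and Mef2c by -1.76 against -2.17. Egr1 differed by -1.001 against -1.04, and Cldn5 by -0.29 (adjusted p = 0.0577) against -0.74. Most other vascular genes named above did not pass by limma in irradiated mice either. These were Pecam1 (-0.15, adjusted p = 0.212), Ly6c1 (-0.16, adjusted p = 0.0571), Abcb1a (-0.13, adjusted p = 0.227) and Bsg (0.27, adjusted p = 0.0841). Ocln passed there (1.03, adjusted p = 0.00119). In a joint fit of the 12 libraries the region difference did not differ between control and irradiated mice for any of 12923 genes by limma at an adjusted p under 0.05, and 682 had an unadjusted p under 0.05.

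**Figure D5:**
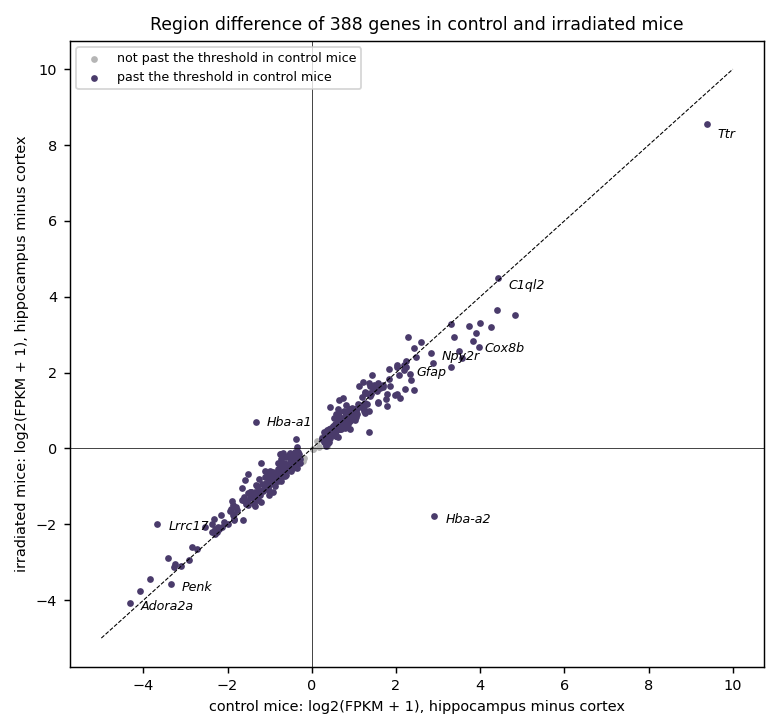
Region difference on log2(FPKM + 1) in irradiated mice (vertical axis) against control mice (horizontal axis) for 388 genes chosen by the naming rule and tested in both, the dashed line marking equal values. Of the 380 that passed in control mice, 376 had the same sign in irradiated mice; the globin copies Hba-a1 and Hba-a2 lie farthest from the line.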

How the data were processed

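RNA-seq libraries of hippocampus and prefrontal cortex from 3 control mice were compared. Per the submitters' processing notes, the mapper was TopHat and the genome build mm10. The authors deposited 1 table per library with a value per gene symbol, read here as FPKM because values scale with transcript length and sum to 1.22 to 1.25 M when multiplied by length in kilobases. The annotation, the counting tool and the use of strand were not stated in the sources used here, although the kit keeps strand per the labels' protocols. The genes and lists described were chosen with earlier results of these data known.

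Values were taken to log2(FPKM + 1) and limited to genes averaging at least 1 FPKM. limma 3.58.1 (R 4.3.3) was fitted with trend, with region and mouse as terms. The titles give the same mouse number to both regions, which pairs the libraries by animal. Deviations from the region means correlated at 0.286, -0.005 and 0.053 across genes for mice 1, 2 and 3, and at -0.207 to 0.171 between different mice. On simulated data with 12923 genes, of which 200 were changed by a log2 difference of 1, the fit recovered 81.5%, and 2.98% of its calls were false. The simulated noise was normal and independent, without a mouse effect, and no changed gene was drawn from those closest to the FPKM filter. These rates hold for that setting only, in which a far smaller share of genes differed than passed here. Lists (63, holding 1354 tested genes) were described by counts and medians, without a test. Named genes were, per direction, the 12 largest differences at a mean of at least 10 FPKM without overlap, up to 4 per list, and a fixed set of regional, glial and receptor genes. Clone names were left out, and a few genes are not reported here. Gene positions are from GENCODE M21, which matched 22112 of 23183 symbols, and promoters from RefSeq (GRCm38.p6). One fragment on a transcript of 2000 bases is worth 0.0264 to 0.0319 FPKM at the estimated depths, so low values are coarse. Alternatives changed the block, the pseudocount, the low-value filter, the scaling, the moderation, the libraries fitted and the mice included. Leaving out the striatal, choroid plexus and ependymal lists was chosen after the data were seen.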

Additional observations from a re-analysis of the deposited data

How the results depend on the processing

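With the replicate block (mouse) removed, 3922 genes passed in place of 4326. The number shared was 3866, which is 89.4% of the genes called with the block and 98.6% of those called without it. Leaving out 1 mouse at a time gave 2889 to 4312 genes, 1483 to 2286 higher and 1406 to 2026 lower, and 545 to 639 differing at least 2-fold. The lowest counts were those without mouse 1, and with 2 mice the fit has fewer residual degrees of freedom. A pseudocount of 0.1 in place of 1 gave 859 genes of at least 2-fold in place of 587, since it enlarges the differences of low genes. Scaling to equal totals gave 2027 higher and 2285 lower, and median-of-ratios scaling 2238 and 2087. Of 229 genes named that passed, 217 passed under every alternative in which they were tested and 12 did not under at least 1. No gene that passed changed sign. Among those that did not pass, leaving out a mouse moved Cx3cr1 from -0.012 (without mouse 2) to 0.104, and Grin2b from -0.15 (without mouse 3) to 0.44. Grin1 passed without mouse 3, Fezf2 without mouse 2, and Pvalb with equal totals. The share of control calls that also passed in irradiated mice ranged from 70.6% to 78.9%. Depth limits genes near 1 FPKM, and no interval is given for single values because fragment counts are not in the tables used.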

Other observations

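Interneuron genes went both ways. Of 28 tested members of the interneuron list 6 were higher and 11 lower in hippocampus (median -0.12, 60.7% past the threshold against 33.5% of all genes). Nos1, the neuronal nitric oxide synthase, was higher (0.65 ± 0.07), as were Calb2, Htr3a and Prox1. Npy, Tac1, Dlx5 and Dlx6, given above, were lower, and Sst and Pvalb did not pass. Tac1 is on the striatal list too. Without members shared with the striatal, choroid plexus and ependymal lists the counts were 6 and 10 of 27. Thalamic genes were split as well, 6 higher and 5 lower of 15, and the protein kinase C isoform Prkcd was higher in hippocampus (1.27 ± 0.12). Genes of the olfactory bulb and of young neurons were lower for 7 of 13 and higher for 1. The exception was Cd24a, a surface protein of young neurons and of ependyma (1.27 ± 0.10). Doublecortin (Dcx), which marks young neurons, such as those of the dentate gyrus and the rostral stream, measured 1.84, 2.16 and 1.82 in hippocampus and 3.44, 3.801 and 3.85 in cortex and was lower in hippocampus (-0.68 ± 0.10, adjusted p = 0.000746), so that each cortical library held more of it than the hippocampus of any mouse.

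Large differences were also found for genes outside the families described. Lrrc17, a secreted leucine-rich protein, measured 36.9, 27.8 and 9.41 in hippocampus and 323, 318 and 225 in cortex (-3.67 ± 0.20, adjusted p = 2.89e-06), and was lowest in both regions in mouse 3. Rasgef1b, an exchange factor for Ras-like proteins, measured 4.52, 5.26 and 3.88 in hippocampus and 30.9, 31.1 and 30.98 in cortex (-2.53 ± 0.09, adjusted p = 3.03e-07), and Dkkl1, related to Wnt inhibitors of the Dickkopf family, measured 1.61, 2.32 and 0.794 in hippocampus and 27.7, 24.4 and 24.9 in cortex (-3.41 ± 0.15, adjusted p = 9.14e-07). All were lower in hippocampus without overlap. Gpr161, a receptor of primary cilia on the CA1 list, was higher in hippocampus (8.44, 7.38 and 10.7 in hippocampus and 1.703, 1.42 and 1.13 in cortex; 2.02 ± 0.14, adjusted p = 9.88e-06).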
